A study of Homo sapiens with 4 samples.

Results

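The genes described here are 44 genes for proteins that write, erase or read chromatin marks or move nucleosomes, and the measurement is the inclusion of their skipped exons in lung-metastatic and parental breast cancer cells. A skipped exon, also called a cassette exon, is an internal exon that is kept in some transcripts of a gene and left out of others. A skipped-exon event was assigned to a gene when its middle exon lay on the same strand inside that gene in the GENCODE annotation of hg38. The deposited tables listed 275 such events in 41 of the 44 genes, of 44447 events in all. Both cell lines had a value for 273 of them, which stood for 222 different exons, and 135 exons in 39 genes had reads enough to be compared, of 14109 exons in 6546 genes in the whole series. For that, each library needed at least 10 reads that fit only inclusion or only exclusion of the exon, and both kinds had to occur. Of the 87 exons left out, 32 had fewer than 10 such reads in a library, 47 had no exclusion read and 8 had no inclusion read. HDAC4, TET1 and TET3 had no event in both tables and were not analysed here, and the events of H2AFY2 and DNMT3A did not reach that read minimum.

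MDA-LM2 is a derivative of MDA-MB-231 with high lung-metastatic activity, and the parental MDA-MB-231 line comes from a human breast carcinoma of the triple-negative kind and is grown in culture. The study compared total RNA of 2 MDA-LM2 samples with that of 2 parental samples, both untreated and grown in the same DMEM-based medium, as ScriptSeq v2 libraries. Nothing states that the samples of a line came from separate cultures. The inclusion tables hold 1 set of values per line and name no replicate, so no spread between samples could be computed, and every interval below covers counting or estimation error within the pooled reads of a line.

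Chromatin modifiers add or remove acetyl and methyl groups on histone tails or methyl groups on DNA, and readers and remodelling complexes bind those marks or slide nucleosomes along the DNA. Many of the genes have long-known alternative exons that change a binding surface, a nuclear signal or the catalytic domain of the protein. The inclusion level of an exon, from 0 to 1, is the estimated share of transcripts across the event that contain the exon.

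Over all events the tables held 17366605 reads in LM2 cells and 21716937 in parental cells that fit at least 1 isoform. Of these, 4701744 in LM2 cells and 5529885 in parental cells fit inclusion alone, and 955034 in LM2 cells and 1101330 in parental cells fit exclusion alone. The labelled cell type was checked on event reads of marker genes. CD44, an adhesion receptor abundant in MDA-MB-231 cells, had 2203 RPM in LM2 cells, that is event reads per 1000000 reads that fit an isoform, and 2511 in parental cells, and AXL, a receptor kinase of mesenchymal-like cells, had 166 RPM in LM2 cells and 180 in parental cells. The luminal markers ESR1 and PGR had at most 2 reads per line, and the 6 luminal markers with an event summed to 24.8 RPM in LM2 cells and 17.0 in parental cells. Most of that sum came from ESRP2, with 401 reads (23.1 RPM) in LM2 cells and 289 (13.3 RPM) in parental cells, so this luminal marker was not absent. The 2 blood markers with an event summed to 0.633 RPM in LM2 cells and 0.414 in parental cells, and the fibroblast marker PDGFRB had 0.345 in LM2 cells and 2.35 in parental cells. VIM, MSN, CAV1, EPCAM, the blood marker CD3E, the fibroblast markers COL1A1 and DCN, and both endothelial markers had no compared event.

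The sequences of the exons on which the results turn are given 5′ to 3′ on the strand of the transcript, from GENCODE 29 transcripts on hg38. Capitals mark the skipped exon, and lower case marks 12 bases of each neighbouring exon. The first set holds some of the coding exons with reads of both isoforms and a counting interval of the odds ratio that excludes 1. Others of that kind, such as the 174-nt exon of NCOR1 and the 119-nt exon of ANKRD11, are not printed. Of the printed exons of this set, SMARCA4 alone passed Fisher's exact test on the reads after adjustment over all tested exons. The adjusted values were 0.372 for NAA40 and 0.544 for KAT5, and KAT5 was not called in the deposited levels.
SMARCA4, 96-nt exon: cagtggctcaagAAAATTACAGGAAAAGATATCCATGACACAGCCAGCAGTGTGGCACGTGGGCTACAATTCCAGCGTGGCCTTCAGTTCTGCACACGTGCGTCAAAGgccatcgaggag
NAA40, 53-nt exon: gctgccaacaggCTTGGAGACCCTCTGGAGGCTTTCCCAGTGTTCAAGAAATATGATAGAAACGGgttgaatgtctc
KAT5, 156-nt exon: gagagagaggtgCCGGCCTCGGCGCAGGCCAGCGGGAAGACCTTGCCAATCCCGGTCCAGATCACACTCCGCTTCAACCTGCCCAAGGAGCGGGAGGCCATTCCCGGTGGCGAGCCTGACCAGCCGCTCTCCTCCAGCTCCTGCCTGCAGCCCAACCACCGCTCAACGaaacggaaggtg
The second set holds coding exons with large deposited differences and few or no reads that skip the exon.
HDAC1, 113-nt exon: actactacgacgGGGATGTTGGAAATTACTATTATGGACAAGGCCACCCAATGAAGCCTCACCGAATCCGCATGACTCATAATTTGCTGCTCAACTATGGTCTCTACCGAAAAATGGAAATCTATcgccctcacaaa
NSD2, 125-nt exon: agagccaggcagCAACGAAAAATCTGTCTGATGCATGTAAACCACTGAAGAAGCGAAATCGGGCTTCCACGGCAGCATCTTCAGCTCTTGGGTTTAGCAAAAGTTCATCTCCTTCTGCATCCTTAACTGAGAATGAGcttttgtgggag
JMJD1C, 114-nt exon: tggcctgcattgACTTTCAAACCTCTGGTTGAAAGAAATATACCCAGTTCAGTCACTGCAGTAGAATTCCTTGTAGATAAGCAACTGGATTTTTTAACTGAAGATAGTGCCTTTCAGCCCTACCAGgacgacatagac
The third set is the pair of macroH2A exons that stand in for each other between the same neighbouring exons.
H2AFY, 91-nt exon: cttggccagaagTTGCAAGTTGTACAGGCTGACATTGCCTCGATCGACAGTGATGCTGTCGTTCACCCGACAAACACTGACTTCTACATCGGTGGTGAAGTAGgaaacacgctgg
H2AFY, 100-nt exon: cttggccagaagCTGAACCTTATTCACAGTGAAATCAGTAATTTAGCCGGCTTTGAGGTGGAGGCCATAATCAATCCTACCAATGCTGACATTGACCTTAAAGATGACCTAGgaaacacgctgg

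An exon was called when the authors' deposited table gave a Bayes factor of at least 10, the weight of evidence for a difference between the 2 tables, and a difference in level, LM2 minus parental, of at least 0.2 in size. Of the 135 tested exons, 6 were called higher in LM2 cells, against 0.921% of all tested exons, and 3 lower, against 0.326%. Called exons of either direction made up 6.67% of the exons of these genes and 1.25% of all tested exons, but the genes were chosen with such calls in view, so nothing is read from that share. The median difference was 0 in these genes and 0 over all tested exons, with quartiles of -0.02 and 0.03 in each. Deposited intervals of the lines did not overlap for 11 exons of these genes, against 3.23% of all tested exons. They included the 9 called exons and a SMARCA4 exon with a smaller difference.

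**Figure D1:**
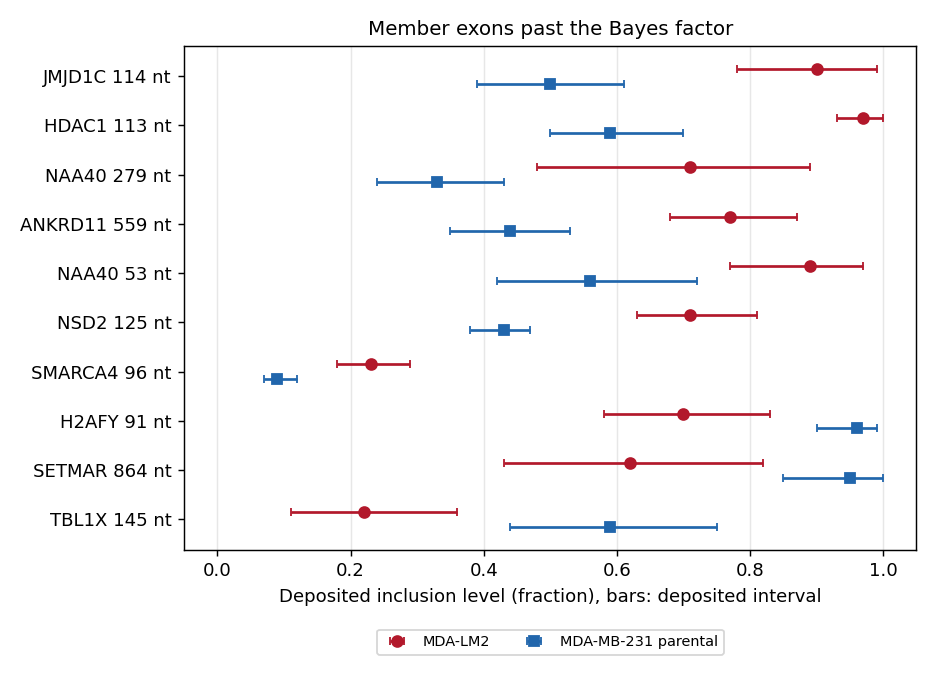
Deposited inclusion level (fraction, horizontal axis) of the 9 called exons and the 96-nt exon of SMARCA4 in MDA-LM2 cells (circles) and MDA-MB-231 parental cells (squares), with bars for the deposited intervals, ordered by difference. The intervals of the lines overlap for none of the 10 exons, and 7 of the 10 lie higher in LM2 cells.

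Among deacetylases and their corepressors, 36 exons were tested, 2 were called higher, 1 lower and 33 were not called. HDAC1, a histone deacetylase of several repressor complexes, included a 113-nt coding exon (hg38 chromosome 1, 32302621 to 32302733) with a deposited level of 0.97 (interval 0.93 to 1) in LM2 cells and 0.59 (0.50 to 0.70) in parental cells. The reads behind it were 392 inclusion and 0 exclusion reads in LM2 cells and 177 inclusion and 2 exclusion reads in parental cells. A count of 0 allows skipping in up to 1.51% of transcripts in LM2 cells. From inclusion and exclusion reads alone, with an inclusion read weighted for the 2 junctions of the exon, the level was 1 in LM2 cells and 0.978 in parental cells. Reads inside an exon also fit inclusion alone. The weight does not correct for exon length, so read-based levels can be overstated, more so for long exons. Both lines were thus near full inclusion by those reads, while the number of inclusion reads per 100 reads that fit both isoforms was 78.2 in LM2 cells and 39.2 in parental cells.

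ANKRD11, an ankyrin-repeat protein that binds deacetylases and nuclear receptor coactivators, had a 559-nt exon of a non-coding transcript (chromosome 16, 89290625 to 89291183) at 0.77 (0.68 to 0.87) in LM2 cells and 0.44 (0.35 to 0.53) in parental cells. It had 614 inclusion and 2 exclusion reads in LM2 cells and 187 and 0 in parental cells, a read-based level of 0.994 in LM2 cells and 1 in parental cells. The read-based difference of -0.0065 had the opposite sign to the deposited one. The count of 0 allows skipping of up to 3.11% in parental cells. Another exon of the gene, a 119-nt coding exon that shares its exclusion reads with a nested 97-nt form, had 68 inclusion and 32 exclusion reads in LM2 cells and 22 and 2 in parental cells. Its odds ratio was 0.195 (95% exact conditional interval 0.021 to 0.876) with deposited levels of 0.32 in LM2 cells and 0.30 in parental cells.

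TBL1X, a subunit that links corepressor complexes to histones, carried the 1 lower exon of the group, a partly coding exon of 145 nt (chromosome X, 9653545 to 9653689). Its deposited level was 0.22 (0.11 to 0.36) in LM2 cells and 0.59 (0.44 to 0.75) in parental cells. The reads were few but included skipping in both lines, with 9 inclusion and 13 exclusion reads in LM2 cells and 39 and 11 in parental cells. The read-based level was 0.257 (0.116 to 0.467, exact binomial) in LM2 cells and 0.639 (0.471 to 0.793) in parental cells, with an odds ratio of 0.201 (0.0576 to 0.655). Deposited and read-based levels were therefore lower in LM2 cells by similar amounts, but the adjusted value in Fisher's exact test on the reads was 0.163.

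TBL1XR1, the close relative of TBL1X in the same complexes, had a 146-nt coding exon at 0.74 (0.64 to 0.85) in LM2 cells and 0.56 (0.48 to 0.64) in parental cells, where the intervals touch. The authors' deposited table gave it a Bayes factor of 5.12, and it had 1 exclusion read in LM2 cells and 0 in parental cells. NCOR1, the scaffold of a nuclear receptor corepressor complex, had a 27-nt coding microexon near the middle of the range in both lines, at 0.47 (0.39 to 0.55) in LM2 cells and 0.44 (0.37 to 0.50) in parental cells. With 74 inclusion and 52 exclusion reads in LM2 cells and 121 and 98 in parental cells, its odds ratio was 1.15 (0.723 to 1.84). Another NCOR1 exon, of 174 nt, was mostly skipped in the deposited levels, 0.13 in LM2 cells and 0.17 in parental cells, but its read-based levels were 0.375 (0.292 to 0.466) in LM2 cells and 0.561 (0.478 to 0.644) in parental cells. The odds ratio of that exon was 0.470 (0.281 to 0.784), with an adjusted value of 0.160 in Fisher's exact test on the reads. HDAC3, a deacetylase of the NCOR1 complex, was near full inclusion at both tested exons, 0.96 to 0.98, and the single tested exons of HDAC2 and HDAC7 were near full skipping, 0.01 to 0.07. HDAC8, a deacetylase that acts on cohesin, had 10 tested exons, 2 of them the 72-nt and 78-nt forms of 1 exon, and none was called. The 111-nt and 61-nt exons each overlap a 186-nt exon, and these share their exclusion reads with one another and with the 235-nt exon. The 151-nt and 140-nt exons also share theirs, so the 10 are not separate splicing choices. All 10 also lie inside another annotated gene on the same strand.

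Histone demethylases had 12 tested exons, of which 1 was called higher and none lower. JMJD1C, a jumonji-domain protein of the demethylase family, included a coding exon of 114 nt, on chromosome 10 from 63264651 to 63264764, at 0.90 (0.78 to 0.99) in LM2 cells and 0.50 (0.39 to 0.61) in parental cells. Skipping was seen in 0 reads of LM2 cells beside 119 inclusion reads, where a count of 0 allows up to 4.80%, and in 1 read of parental cells beside 92. The read-based levels of 1 in LM2 cells and 0.979 in parental cells were near full inclusion, with 58.6 inclusion reads per 100 both-isoform reads in LM2 cells and 28.2 in parental cells. A second event of the same exon, with other neighbouring exons, gave 0.93 in LM2 cells and 0.87 in parental cells. The 215-nt exon of the gene was at 0.91 in LM2 cells and 0.84 in parental cells.

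The other demethylases were not called. KDM1A, the lysine demethylase of the CoREST complex, had a 60-nt coding exon at 0.32 (0.22 to 0.44) in LM2 cells and 0.42 (0.32 to 0.53) in parental cells, from 31 inclusion and 26 exclusion reads in LM2 cells and 52 and 26 in parental cells. Its 12-nt microexon, known for neuronal transcripts, had 0 inclusion reads in both lines beside 88 exclusion reads in LM2 cells and 171 in parental cells, which allows inclusion of up to 1.68% in LM2 cells and 0.870% in parental cells. KDM6A, the X-linked demethylase of the polycomb mark, had 4 tested exons, with the 135-nt exon at 0.85 in LM2 cells and 0.90 in parental cells. The 84-nt coding exon of KDM2A, a demethylase that binds CpG islands, stood at 0.93 (0.86 to 0.98) in LM2 cells and 0.79 (0.66 to 0.94) in parental cells, and those intervals overlap. KDM5C, an X-linked demethylase, was mostly skipped at both tested exons, at 0.09 or less in both lines. Its 43-nt exon was at 0.09 (0.04 to 0.16) in LM2 cells and 0.02 (0 to 0.05) in parental cells, with a Bayes factor of 0.93. It had 7 inclusion and 62 exclusion reads in LM2 cells and 1 and 75 in parental cells, for an odds ratio of 8.37 with a wide interval of 1.03 to 387.

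Histone methyltransferases had 33 tested exons, with 1 called higher, 1 lower and 31 not called. NSD2, which methylates histone H3 and is overexpressed in a translocation of myeloma, kept a coding exon of 125 nt, on chromosome 4 from 1939654 to 1939778, at 0.71 (0.63 to 0.81) in LM2 cells and 0.43 (0.38 to 0.47) in parental cells. It had 313 inclusion and 6 exclusion reads in LM2 cells and 360 and 5 in parental cells, and its read-based levels were 0.963 in LM2 cells and 0.973 in parental cells. The odds ratio of 0.725 had an interval of 0.173 to 2.88, which covers 1, while inclusion reads per 100 both-isoform reads were 55.4 in LM2 cells and 30.6 in parental cells. Its mostly skipped 227-nt exon, with deeper exclusion reads, was at 0.10 (0.08 to 0.12) in LM2 cells and 0.12 (0.10 to 0.14) in parental cells, from 81 inclusion and 270 exclusion reads in LM2 cells and 118 and 307 in parental cells.

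SETMAR, a methyltransferase fused to a transposase domain, included a coding exon of 864 nt, on chromosome 3 from 4312898 to 4313761, at 0.62 (0.43 to 0.82) in LM2 cells and 0.95 (0.85 to 1) in parental cells. It rested on 43 inclusion reads and 1 exclusion read in LM2 cells, and on 178 and 0 in parental cells, for a read-based level of 0.956 in LM2 cells and 1 in parental cells, where a count of 0 allows skipping of up to 3.26%. Read-based levels were therefore near 1 in both lines, and the deposited fall was not seen at that size in them. They are not corrected for the length of this exon.

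EZH2, the catalytic subunit of a polycomb repressive complex, had a well covered alternative exon. Its 117-nt coding exon was at 0.54 (0.49 to 0.60) in LM2 cells and 0.53 (0.48 to 0.59) in parental cells, from 302 inclusion and 105 exclusion reads in LM2 cells and 330 and 102 in parental cells. The odds ratio was 0.889 (0.641 to 1.23), an interval that covers 1 and excludes a 2-fold change of the odds. EHMT2, a methyltransferase of histone H3 known for a long and a short form, had its 102-nt coding exon at 0.55 (0.41 to 0.70) in LM2 cells and 0.54 (0.43 to 0.66) in parental cells. EHMT1, its partner, had a 78-nt exon at 0.71 in LM2 cells and 0.70 in parental cells. SETD2, the methyltransferase that follows elongating RNA polymerase, had a 329-nt exon at 0.10 in LM2 cells and 0.10 in parental cells, with 45 inclusion and 73 exclusion reads in LM2 cells and 106 and 170 in parental cells. Both tested exons of NSD1 were mostly skipped, at 0.01 to 0.03, and the tested exon of SETDB1 was mostly included, at 0.92 in LM2 cells and 0.91 in parental cells.

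MacroH2A1, a histone variant with a large macro domain, is encoded by H2AFY and exists in a pair of splice forms that use either a 91-nt or a 100-nt exon, and only 1 of the forms binds ADP-ribose. Of its 4 tested exons 1 was called, lower in LM2 cells. The 91-nt exon (chromosome 5, 135350823 to 135350913) was at 0.70 (0.58 to 0.83) in LM2 cells and 0.96 (0.90 to 0.99) in parental cells, with 180 inclusion reads and 1 exclusion read in LM2 cells and 462 and 2 in parental cells. Its read-based level was 0.989 in LM2 cells and 0.991 in parental cells, a difference of -0.0024. The odds ratio of 0.780 had an interval of 0.0404 to 46.2, too wide to show or exclude a fall. The exclusion reads join the neighbouring exons with neither alternative exon, so this level could not show a switch between the 91-nt and the 100-nt exon. They are shared with the event of the 100-nt exon, which stood at 1 in both lines. Since the exons replace each other, their inclusion reads were also set against each other, a comparison chosen after the values were seen. The 100-nt exon (chromosome 5, 135352946 to 135353045) had 1213 inclusion reads in LM2 cells and 2102 in parental cells, so the 91-nt exon made up 12.9% (11.2 to 14.8, exact binomial) of the reads of the pair in LM2 cells and 18.0% (16.5 to 19.6) in parental cells. Both lines used mainly the 100-nt exon, and the odds of the 91-nt exon were lower in LM2 cells at 0.675 of the parental odds (0.557 to 0.816).

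**Figure D2:**
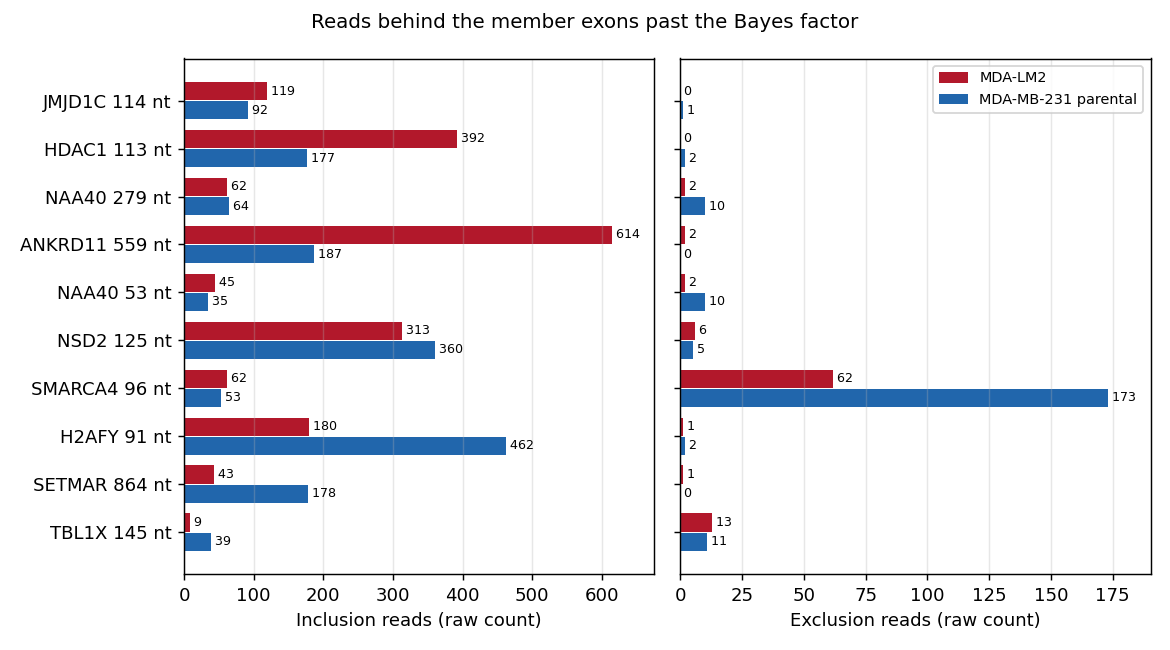
Raw inclusion reads (left panel) and exclusion reads (right panel) of the same 10 exons, with the MDA-LM2 bar above the parental bar of each exon. The 96-nt exon of SMARCA4 has 62 exclusion reads in LM2 cells and 173 in parental cells, whereas 6 of the 9 called exons have at most 6 in each line.

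Chromatin remodellers had 30 tested exons, and none was called with a difference of 0.2. SMARCA4, an ATPase of the SWI/SNF complexes, was the exception with a smaller difference: its 96-nt coding exon (chromosome 19, 11039458 to 11039553) was at 0.23 (0.18 to 0.29) in LM2 cells and 0.09 (0.07 to 0.12) in parental cells. The authors' deposited table gave it a difference of 0.14 and a Bayes factor of 5569570; differences of 0.1 to 0.2 past a factor of 10 were given to 0.822% of all tested exons. With 0.1 as the smallest difference, 7 exons of these genes were thus higher and 3 lower, against 2.07% of all tested exons in either direction. Inclusion and exclusion reads numbered 62 and 62 in LM2 cells and 53 and 173 in parental cells. The read-based level was 0.333 (0.257 to 0.420) in LM2 cells and 0.133 (0.0994 to 0.173) in parental cells, and the odds ratio was 3.25 (1.99 to 5.35). It was the 1 exon of these genes past 0.05 in Fisher's exact test on the reads of the pooled libraries, which compares those libraries, after Benjamini-Hochberg adjustment over all tested exons. Of all tested exons 1.1% passed that threshold, so 1 of the 135 is near the background. Its read-based difference was 0.201, and 4.51% of all tested exons had one of at least 0.2 in size, while 0.248% passed both criteria. A second event of the exon, with another downstream neighbour, gave 0.13 in LM2 cells and 0.06 in parental cells. SMARCA4 also has a 99-nt coding exon, with 15 inclusion and 38 exclusion reads in LM2 cells and 17 and 79 in parental cells. Its deposited level was 0.11 (0.07 to 0.17) in LM2 cells and 0.06 (0.03 to 0.09) in parental cells, with an odds ratio of 1.83 (0.761 to 4.37).

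The alternate ATPase, SMARCA2, had a 54-nt coding exon at 0.20 (0.11 to 0.31) in LM2 cells and 0.15 (0.10 to 0.20) in parental cells. Its 96-nt exon was at 0.68 (0.47 to 0.87) in LM2 cells and 0.90 (0.78 to 0.98) in parental cells, with a Bayes factor of 1.35. This exon had 28 inclusion and 0 exclusion reads in LM2 cells and 102 and 1 in parental cells. Its read-based levels were 1 in LM2 cells and 0.981 in parental cells, the opposite direction to the deposited levels. The count of 0 allows skipping of up to 17.6% in LM2 cells. SMARCC2, a core subunit of the complexes, had a 93-nt coding exon at 0.20 (0.14 to 0.27) in LM2 cells and 0.22 (0.17 to 0.28) in parental cells. BPTF, the subunit of the NURF remodeller that reads methylated histone H3, had a 189-nt coding exon at 0.45 (0.39 to 0.53) in LM2 cells and 0.47 (0.41 to 0.54) in parental cells. CHD8, a remodeller with chromodomains, had a 924-nt coding exon at 0.61 (0.53 to 0.70) in LM2 cells and 0.70 (0.63 to 0.78) in parental cells, and a nested 843-nt form shares its exclusion reads. The 3 tested exons of CHD4, the ATPase of the NuRD complex, were at 0.01 or less in both lines. Its 98-nt and 118-nt exons are nested and share their exclusion reads. SMARCE1 had 3 tested exons, at 0.05 or less or at 0.92 or more in both lines. ARID1A, a DNA-binding subunit, had 1 tested exon at 0.21 in LM2 cells and 0.19 in parental cells, and both tested exons of its relative ARID1B differed by at most 0.02.

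Acetyltransferases and their partners had 14 tested exons, of which 2 were called higher and none lower. Both belong to NAA40, which acetylates the N-terminus of histones H4 and H2A, and they are nested: the 279-nt and the 53-nt exon end at the same base and share their exclusion reads, so they count as 1 splicing choice. The 53-nt coding exon (chromosome 11, 63946951 to 63947003) was at 0.89 (0.77 to 0.97) in LM2 cells and 0.56 (0.42 to 0.72) in parental cells, and the 279-nt form at 0.71 (0.48 to 0.89) in LM2 cells and 0.33 (0.24 to 0.43) in parental cells. The shorter form had 45 inclusion and 2 exclusion reads in LM2 cells and 35 and 10 in parental cells, a read-based level of 0.918 (0.746 to 0.990) in LM2 cells and 0.636 (0.459 to 0.798) in parental cells. Its odds ratio was 6.31 with a wide interval of 1.23 to 62.9, and that of the longer form 4.80 (0.966 to 46.8). KAT5, the acetyltransferase of the NuA4 complex, had its 156-nt coding exon (chromosome 11, 65713348 to 65713503), which separates known splice forms, at 0.26 (0.17 to 0.36) in LM2 cells and 0.44 (0.34 to 0.56) in parental cells. The authors' deposited table gave a Bayes factor of 3.59, so it was not called. Behind it stood 30 inclusion and 17 exclusion reads in LM2 cells and 65 and 14 in parental cells, with an odds ratio of 0.383 (0.152 to 0.946). BRD8, a bromodomain subunit of the same complex, had a 219-nt coding exon at 0.90 (0.85 to 0.95) in LM2 cells and 0.83 (0.77 to 0.89) in parental cells. EP300, a coactivator acetyltransferase, had a 78-nt coding exon at 0.70 (0.56 to 0.85) in LM2 cells and 0.85 (0.71 to 0.95) in parental cells.

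Genes of DNA methylation and hydroxylation had 6 tested exons and none was called. DNMT3B, a de novo methyltransferase, had a 126-nt coding exon at 0.76 (0.62 to 0.89) in LM2 cells and 0.90 (0.77 to 0.99) in parental cells, with 2 exclusion reads in LM2 cells and 1 in parental cells. TET2, which oxidises methylated cytosine, had 3 tested exons at 0.77 to 0.85 in LM2 cells and 0.72 to 0.80 in parental cells. Of these, 2 are the 127-nt and 146-nt forms of 1 exon and share their exclusion reads. Each of the 3 had at most 2 exclusion reads per line. Their read-based levels went the other way, at 0.905 to 0.929 in LM2 cells and 0.940 to 1 in parental cells.

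**Figure D3:**
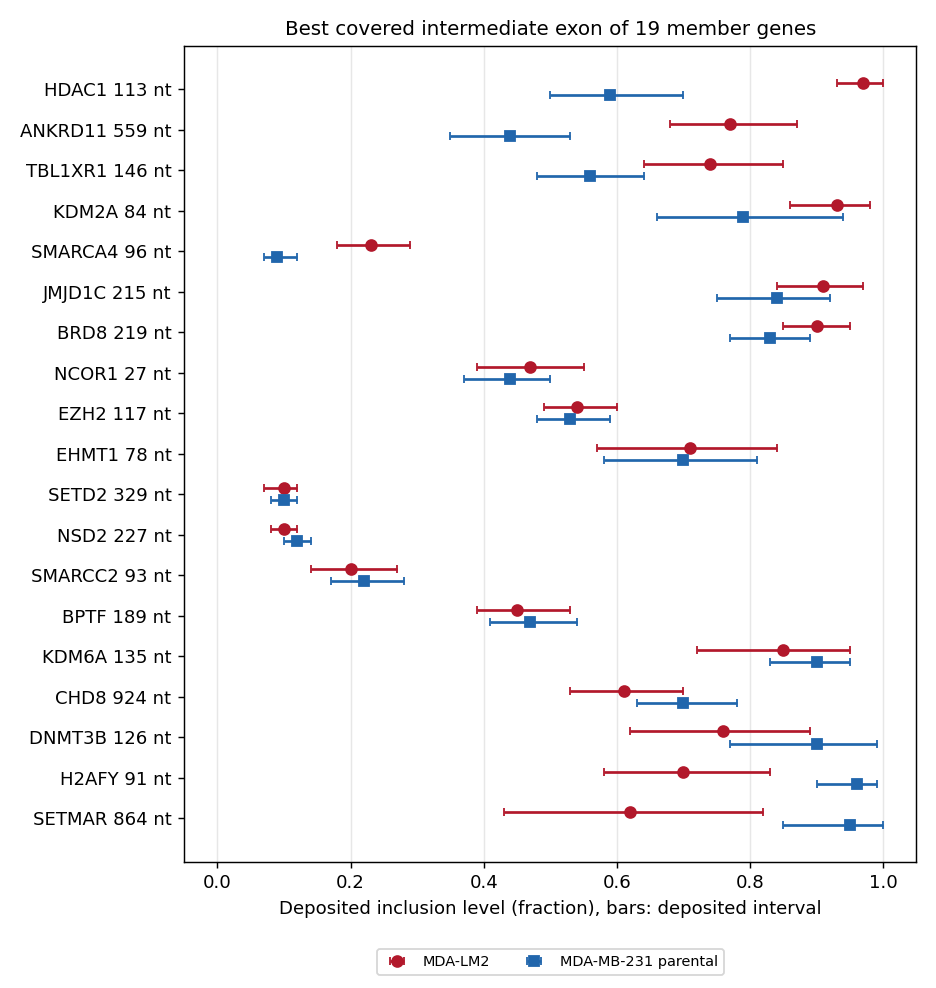
Deposited inclusion level (fraction, horizontal axis) with deposited intervals (bars) of the best covered exon of intermediate level in 19 genes, in MDA-LM2 cells (circles) and MDA-MB-231 parental cells (squares), ordered by difference. EZH2, EHMT1, SETD2, SMARCC2 and BPTF lie at nearly the same level in both lines, within 0.02.

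An exon was taken as intermediate when the mean level of the lines lay between 0.1 and 0.9. That held for 72 of the 135 exons, 53.3% against 44.0% of all tested exons. Mostly included exons, above 0.9, made up 14.8% of these genes' exons and 25.2% of all, and mostly skipped ones made up 31.9% of these genes' exons and 30.8% of all. Of the 72 intermediate exons, 43 had a length divisible by 3, which is 59.7% against 44.0% of all intermediate exons. By annotation 72 of the 135 were coding, 36 partly coding, 14 in a 5′ UTR, 4 in a 3′ UTR and 9 in non-coding transcripts, and 23 also lay inside another gene on the same strand. Median length was 124 nt against 119 nt, and the median upstream intron 3009 nt against 2296 nt. These shares are descriptions of a chosen list.

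Deposited and read-based differences were then set side by side for every tested exon, with read-based levels not corrected for exon length. Read-based levels parted by 0.1 or more for 14.8% of these genes' exons, 6 higher and 14 lower, against 15.9% of all tested exons. Of the 9 called exons, 3 had such a difference in the called direction, and they were the TBL1X exon and both NAA40 forms. Another 4 of the 9 were called higher although the read-based level in parental cells was already above 0.9, namely HDAC1, JMJD1C, ANKRD11 and NSD2. In 6 of the 9, each line had at most 6 exclusion reads, and in 4 a line had 0. Why deposited and read-based levels part at these exons was not tested. For the 91-nt exon of H2AFY the read-based level could not show a switch to the 100-nt exon. An unadjusted Fisher p under 0.05 on the reads was reached by 12 exons of these genes, 8.89% against 7.56% of all tested exons. Among the called exons these were the TBL1X exon and both NAA40 forms.

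**Figure D4:**
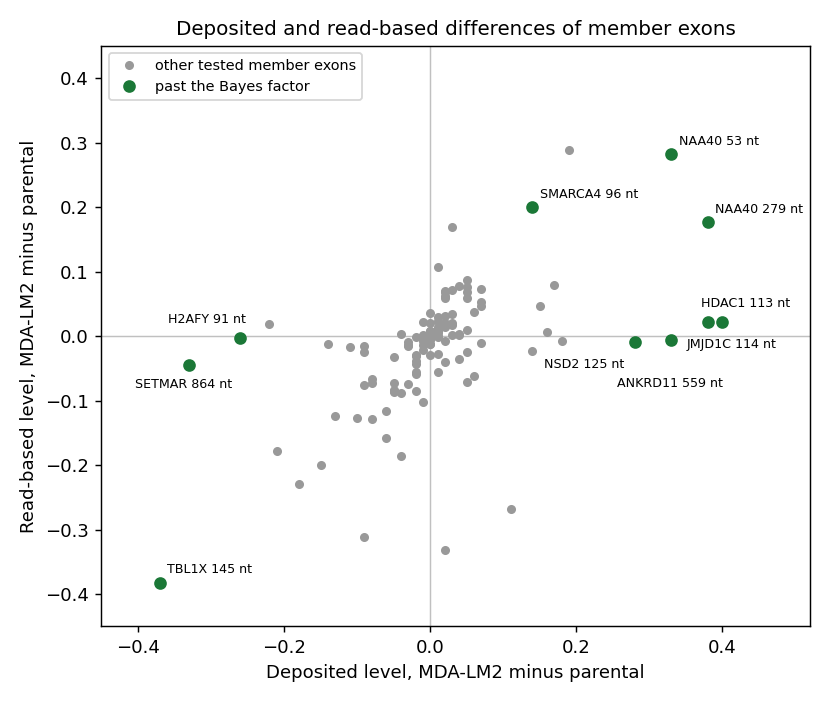
Difference in deposited level (horizontal axis) against difference in read-based level (vertical axis), MDA-LM2 minus parental in fractions, for the 135 tested exons, with the exons past the Bayes factor named. NAA40, SMARCA4 and TBL1X lie away from 0 on both axes, whereas HDAC1, JMJD1C, ANKRD11, NSD2, SETMAR and H2AFY lie within 0.05 of 0 on the vertical axis. For H2AFY the vertical axis cannot show a switch between its alternative exons.

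The reads that fit an isoform at a gene's best covered event, scaled to all such reads of the line, gave the gene level of 40 of the 44 genes in RPM. They are not corrected for length and are compared within a gene only, and in such bulk samples fewer cells with a transcript and less of it per cell cannot be told apart. A gene was called at 2-fold with an exact conditional 95% interval excluding 1. By that rule 2 genes were higher in LM2 cells, against 3.17% of the 10213 genes measured, and 2 were lower, against 8.79%. The median ratio, LM2 over parental, was 0.878 in these genes and 0.921 over all genes, a shift of -0.12 on the log2 scale for the median gene.

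ANKRD11 had the highest ratio of these genes, with 963 reads in LM2 cells and 440 in parental cells, or 55.5 RPM in LM2 cells and 20.3 in parental cells, a ratio of 2.74 (2.44 to 3.07). This is the event of a 143-nt coding exon with no exclusion read in either line, and not that of the called exon. DNMT3B followed with 356 reads in LM2 cells and 206 in parental cells, a ratio of 2.16 (1.82 to 2.58). TBL1X was lowest, with 23 reads in LM2 cells and 72 in parental cells, a ratio of 0.399 (0.238 to 0.647). Those reads belong to the event of a 1637-nt exon in the 5′ UTR with no exclusion read in either line. At the called TBL1X exon the event reads differed less, with 1.61 RPM in LM2 cells and 2.58 in parental cells. SETMAR had 139 reads in LM2 cells and 396 in parental cells, a ratio of 0.439 (0.359 to 0.534), at the event of its called exon. ANKRD11 was thus high both in event reads and in the deposited level of its called exon, and TBL1X and SETMAR were low in both, although for SETMAR the same reads enter both measures. Of the other called genes, HDAC1 and H2AFY also went the same way in both. NSD2, JMJD1C and NAA40 had exons called higher but ratios below 1. These were 0.678 (0.643 to 0.715), 0.946 (0.909 to 0.983) and 0.831 (0.630 to 1.09), the last with an interval that covers 1.

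With the 2-fold genes counted in, the interval lay above 1 for 4 of the 40 genes, against 22.7% of all genes, and below 1 for 22, against 36.6%. Relative to the median gene, a scaling of these counts chosen after seeing the data, it lay above 1 for 8, against 30.5%, and below 1 for 17, against 28.3%. The genes above 1 by that scaling alone were ARID1A, EZH2, EP300 and HDAC7. HDAC1 had a ratio of 1.77 (1.60 to 1.97) and CHD4 of 1.12 (1.04 to 1.20). The HDAC1 ratio comes from the event of its called exon, so the same reads enter the ratio and the deposited level. Event reads of other HDAC1 exons differed less between the lines. The 75-nt exon had 35.7 RPM in LM2 cells and 26.7 in parental cells. The 53-nt exon had 18.1 RPM in LM2 cells and 14.6 in parental cells. Of the 9 remodeller genes, 6 had an interval below 1, and 5 had one relative to the median gene, where that of BPTF (0.877 to 1.05) covers 1: SMARCA4 had 0.617 (0.567 to 0.672), SMARCE1 0.597 (0.566 to 0.628), SMARCA2 0.571 (0.475 to 0.683), SMARCC2 0.786 (0.700 to 0.883), with CHD8 at 0.685 (0.628 to 0.747) and BPTF at 0.886 (0.807 to 0.971). ARID1A had 0.976 (0.929 to 1.02), an interval that covers 1, but one above 1 relative to the median gene (1.01 to 1.11). SETD2 had 0.547 (0.530 to 0.565), TET2 0.554 (0.515 to 0.595) and KDM6A 0.587 (0.490 to 0.701). NSD2 and H2AFY, both with a called exon, had ratios of 0.678 (0.643 to 0.715) and 0.753 (0.707 to 0.802). EZH2 had 1.03 (0.924 to 1.14) and HDAC2 0.998 (0.890 to 1.12). All these ratios are to library totals, by which the median gene lies at 0.921.

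**Figure D5:**
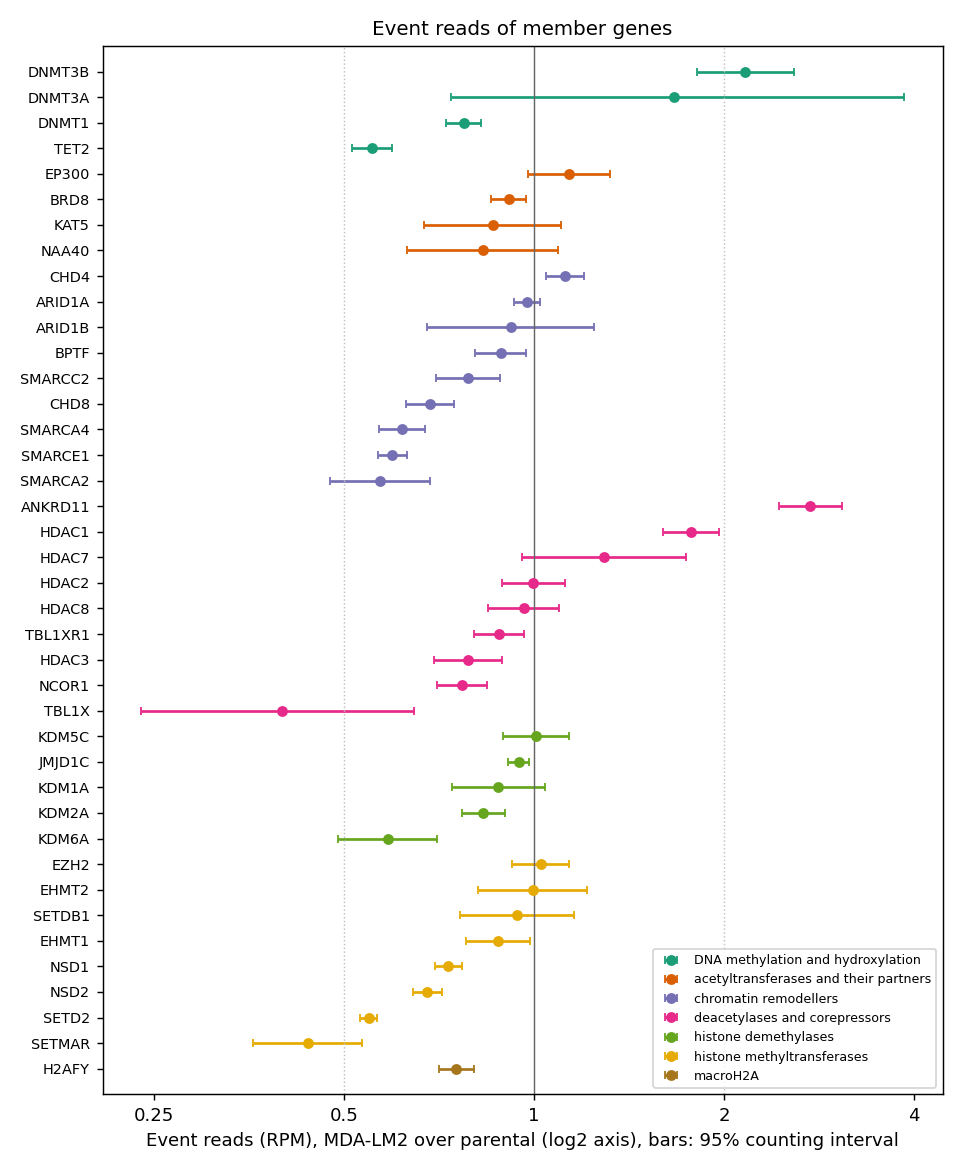
Ratio of event reads (RPM), MDA-LM2 over parental (log2 axis), for 40 genes grouped by role, with 95% exact conditional counting intervals as bars and dotted lines at 0.5 and 2. ANKRD11 and DNMT3B lie right of 2, TBL1X and SETMAR left of 0.5, and 6 of the 9 remodellers have intervals below 1, or 5 relative to the median gene.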

How the data were processed

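Total RNA libraries were aligned with STAR 2.7 to hg38, per the submitters' processing notes. The deposited tables are MISO summaries per the file headers: an inclusion level as a fraction from 0 to 1 with an interval, counts of reads per isoform class (inclusion, exclusion, both, neither), and the authors' deposited table of differences in level, a signed score, with a Bayes factor as a ratio. Not given in the sources used here are the MISO version, its settings, the level of the interval, the event annotation and whether samples were pooled. Each table was taken as pooled over the 2 samples of its line, and 0 columns of unmapped samples were used.

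Exons were assigned to genes with GENCODE 29, and where several events shared an exon, that with most inclusion plus exclusion reads was used. Read-based levels halve the weight of an inclusion read. They are not corrected for exon length, although reads inside the exon count as inclusion reads. For example, the 892-nt and 241-nt exons of ARID1A, which end at the same base, had 495 and 53 inclusion reads in LM2 cells. Intervals of levels are exact binomial (Clopper-Pearson) and those of ratios exact conditional, at 95%. They cover counting error only, since no molecular identifiers mark PCR copies, and Fisher's exact test compares libraries, not lines. The test was tried on simulated reads, with large changes set only at exons with balanced inclusion and exclusion reads. That trial does not cover exons with few exclusion reads, or spread between samples. Genes needed at least 20 event reads over both libraries. Where exclusion or inclusion reads were 0, the limit is 3 counts of the total.

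The genes and lists were chosen with earlier results of these data known. All called genes but ANKRD11 were already among those results. Named in the text are every called exon, every exon past a Bayes factor of 10 with a difference of 0.1 to 0.2, the best covered intermediate exon of up to 20 genes, every gene called at 2-fold, and the highest and lowest ratio. Other exons of the genes, such as those of KAT5, NCOR1, EHMT2, KDM1A and SMARCA2, were named after their values were seen. The result of 1 exon under these rules is not reported here. Alternatives changed the Bayes factor, the difference, the read minimum, the event, the read weights and the test. Python 3.11.15, pandas 2.3.3, SciPy 1.17.1 and matplotlib 3.10.9 were used.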

Additional observations from a re-analysis of the deposited data

How the results depend on the processing

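The 6 exons called higher became 2 when a read-based difference of at least 0.1 was also required, and 1 under Fisher's exact test on the reads with a read-based difference of 0.2. The 3 called lower became 1 and 0 under these alternatives, and 12 exons of these genes had an unadjusted Fisher p under 0.05. The exon found by Fisher's test is the SMARCA4 exon, none of the 6. Every other alternative for the counts (the Bayes factor, the smaller difference, the read minimum, all events, exons outside other genes, intermediate exons) gave 6 to 7 higher and 3 lower. Read-based levels turned the sign of the 559-nt exon of ANKRD11 to -0.0065, or -0.0032 with equal weights, and of the 125-nt exon of NSD2 to -0.0099 and -0.0051, against 0.33 and 0.28 as deposited. Genes lower by 2-fold fell to 1 with at least 100 reads over both libraries, because TBL1X has fewer. Other alternatives gave 2 to 3 genes higher and 2 lower. Relative to the median gene, genes with an interval above 1 numbered 8 in place of 4. The cause of the read-based differences was not tested. Exclusion reads limit most called exons. No paired analysis was possible because the tables carry no replicate number, and leaving out a replicate could not be run for the same reason.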

Other observations

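JMJD1C had a further coding exon, of 202 nt (chromosome 10, 63200476 to 63200677), that was left out of the comparison because no read skipped it in either line. Its deposited level was 0.86 (0.77 to 0.93) in LM2 cells and 0.54 (0.47 to 0.61) in parental cells, with 300 inclusion reads in LM2 cells and 246 in parental cells. The count of 0 exclusion reads allows skipping of up to 1.96% in LM2 cells and 2.38% in parental cells. It was the 1 call added when no read minimum was set.

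A list of 123 other chromatin genes had 206 tested exons in 84 genes, of which 1 was called higher and none lower, 0.485% against 1.25% of all tested exons. The called exon was an 80-nt coding exon of PHF20, a subunit of an acetyltransferase complex, at 0.85 (0.74 to 0.93) in LM2 cells and 0.60 (0.49 to 0.73) in parental cells. It had 111 inclusion and 3 exclusion reads in LM2 cells and 87 and 1 in parental cells, and its read-based levels of 0.949 in LM2 cells and 0.978 in parental cells differed by -0.029, with the opposite sign to the deposited difference. Past the Bayes factor with a difference of 0.1 to 0.2 were a 54-nt coding exon of PRMT1, an arginine methyltransferase, and a 39-nt coding exon of SETD5. PRMT1 stood at 0.20 (0.16 to 0.24) in LM2 cells and 0.08 (0.05 to 0.11) in parental cells, from 69 inclusion and 195 exclusion reads in LM2 cells and 22 and 173 in parental cells. SETD5 stood at 0.22 (0.16 to 0.29) in LM2 cells and 0.11 (0.08 to 0.14) in parental cells, from 42 and 84 reads in LM2 cells and 47 and 243 in parental cells. In Fisher's exact test on the reads the adjusted values were 0.0117 for PRMT1 and 0.0182 for SETD5. Of the 206 exons, 3 were under 0.05 in that test, against 1.1% of all tested exons. In event reads, 3 of the 98 measured genes of the list were lower by 2-fold in LM2 cells, against 8.79% of all genes measured. These were EZH1 at a ratio of 0.281 (0.218 to 0.357), PHF21A at 0.426 (0.362 to 0.4998) and SUZ12 at 0.470 (0.360 to 0.607).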
